A study of Drosophila melanogaster with 12 samples.

Results

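The genes described here are 7 components of ribosome-associated quality control in Drosophila melanogaster: Znf598, Rack1, pelo, HBS1, Clbn, Ltn1 and TER94. They were chosen by name for their role in the pathway, by a rule that uses no measured value but with earlier results of these data known, and all 7 were found among the 14405 genes and unmatched features of the count table, of which 12759 were protein-coding genes. Znf598 is listed in the annotation as CG11414. Ribo-Seq, which sequences the mRNA fragments that ribosomes protect from nuclease (footprints), and RNA-Seq were performed on whole female flies. The mutants, dC53EY22749 in the labels and Polr3D EY/+ hereafter, carried 1 copy of a P-element inserted in Polr3D, the gene of an RNA polymerase (Pol) III subunit, and the controls were wild-type flies of the White Dahomey stock. The insertion was carried in all tissues, each library came from a pool of flies, and the ages of the flies were not given in the sources used here. According to the labels, both genotypes were treated alike, with 100 µg/ml cycloheximide in the Ribo-Seq samples to hold ribosomes on the mRNA. The libraries analysed were 3 of Polr3D EY/+ and 3 of wild-type flies in Ribo-Seq, and 3 of Polr3D EY/+ and 2 of wild-type flies in RNA-Seq.

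Ribosomes that stall on an mRNA are run into by the ribosomes that follow, and the collided pair is the signal that starts quality control. The stalled ribosome is split into its subunits, and the unfinished protein that remains on the large subunit is tagged with ubiquitin, pulled out and degraded. A shortage of a charged tRNA is one of the conditions known to make ribosomes stall, and tRNAs are products of Pol III, so the pathway is of interest where a Pol III subunit is reduced.

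None of the 7 genes changed detectably between Polr3D EY/+ and wild-type flies. In a DESeq2 model of all genes, on counts summed over the transcripts of each gene, 0 of the 7 genes passed an adjusted p of 0.1 in RNA, where 1.02% of all genes tested did so. The count was 0 of 7 in footprints, against 0.362% of all genes, and 0 of 7 in translation efficiency (the change in footprints beyond that in RNA), against 0.303%. Unadjusted DESeq2 p-values under 0.05 were also given to 0 of the 7 genes in each contrast. Over the whole table, 231, 420 and 237 genes had such values in RNA, footprints and translation efficiency. edgeR called 0 of the 7 in each contrast, against 15, 39 and 4 of 14368 genes. The fit gives a rough bound on the size of a change. All 7 intervals of the log2 change at the 95% level lay within 2-fold in either direction in each of the 3 contrasts, the widest reaching -0.83 and 0.89 in translation efficiency. These intervals use a normal approximation with 4 residual degrees of freedom, so they may be too narrow. With a replicate or library left out, the translation efficiency change of Znf598 ran between -0.59 and 0.57. What the data show in most detail are the levels of these genes relative to each other, which differed widely and were similar in both genotypes.

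Some properties of the libraries bear on these values. Ribosomal RNA took 96.1% to 97.7% of the Ribo-Seq counts, which left between 1127599 and 1495975 counts on protein-coding genes in 5 of these libraries and 3192166 in that of Polr3D EY/+ replicate 2. The RNA-Seq libraries held 24299908 to 28718489 protein-coding counts. Polr3D, the mutated gene, had 30.5, 29.6 and 30.5 CPM of RNA (counts scaled so that the protein-coding genes of a library total 1000000) in Polr3D EY/+ flies, against 51.7 and 63.6 CPM in wild-type flies (log2 change -0.92, SE 0.25, DESeq2 adjusted p 0.0294), in the direction of the labels. Of 8 markers of male flies, 7 were in the table. Their summed RNA was 19.6 CPM in Polr3D EY/+ replicate 1, with 0 of the 7 at zero, and 0.174 to 0.359 CPM in the other RNA-Seq libraries. Their summed footprints were 25.2 CPM in Polr3D EY/+ replicate 3 and 49.7 CPM in wild-type replicate 2, and 0 to 3.76 CPM in the other Ribo-Seq libraries. Without these 3 libraries, a setting chosen after seeing the data that also took in the footprints of wild-type replicate 3 and dropped the replicate term, again 0 of the 7 genes were called in each contrast. That fit called 18, 26 and 7 genes of the whole table in RNA, footprints and translation efficiency. Of 5 germline markers, the 4 in the table summed to 238 to 310 CPM of footprints in Polr3D EY/+ flies and 337 to 373 CPM in wild-type flies. The ranges did not overlap in footprints, while in RNA they did (1223 to 1396 CPM in Polr3D EY/+ and 1146 to 1453 CPM in wild-type flies). Of 7624 single genes, 6.64% had fewer footprints in all Polr3D EY/+ libraries than in all wild-type ones, so such a gap does not by itself show a germline difference. The part of male or germline material in the results below was not tested. In whole flies, fewer cells of a type cannot be told apart from less RNA per cell.

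The sensors of collided ribosomes are described first. Znf598 (FBgn0035024; chromosome 2R, 24561607 to 24565058, plus strand, assembly BDGP6) encodes a ubiquitin ligase that, as known from its human counterpart, recognises the surface formed by a pair of collided ribosomes and marks proteins of their small subunits. Its RNA was 98.2, 65.1 and 100.9 CPM in Polr3D EY/+ replicates 1 to 3, against 70.8 and 98.3 CPM in wild-type replicates 1 and 2. Its footprints were 40.4, 52.0 and 49.6 CPM in Polr3D EY/+ flies, against 60.2, 37.2 and 47.3 CPM in wild-type flies. The genotypes overlapped in both assays, and the replicates of a genotype differed more than the genotypes did. Znf598 had the widest spread between libraries of the 7 genes in RNA, with 1.55-fold between the highest and the lowest. The log2 change was -0.04 (SE 0.28) in RNA, -0.08 (SE 0.32) in footprints and -0.04 (SE 0.40) in translation efficiency, all with a DESeq2 adjusted p of 1.0.

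Rack1 (FBgn0020618; chromosome 2L, 7825347 to 7827315, minus strand) encodes a propeller-shaped protein of the small ribosomal subunit that sits where collided ribosomes touch. Its RNA was 2817, 3008 and 2829 CPM in Polr3D EY/+ flies, against 2876 and 2724 CPM in wild-type flies. Its footprints were 1933, 1988 and 1856 CPM in Polr3D EY/+ flies, against 2205, 1857 and 2394 CPM in wild-type flies. In footprints, wild-type replicates 1 and 3 lay above every Polr3D EY/+ library, while wild-type replicate 2 lay among them. The log2 change in footprints was -0.04 (SE 0.13, DESeq2 adjusted p 1.0) in the model without wild-type replicate 3 and -0.14 (SE 0.11, adjusted p 1.0) with all 11 libraries. That in RNA was 0.06 (SE 0.13). Wild-type replicate 2 is also the library with the most footprints of male markers. Without the 3 libraries named above, the footprint change of Rack1 was -0.24 (SE 0.10, unadjusted p 0.0226, DESeq2 adjusted p 0.901) and the change in translation efficiency was -0.30 (SE 0.14, unadjusted p 0.0401, adjusted p 1.0), against -0.10 (SE 0.17) with them. These were the lowest unadjusted p-values of any of the 7 genes in the fits of footprints and translation efficiency, and they did not pass the adjustment over all genes.

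**Figure D1:**
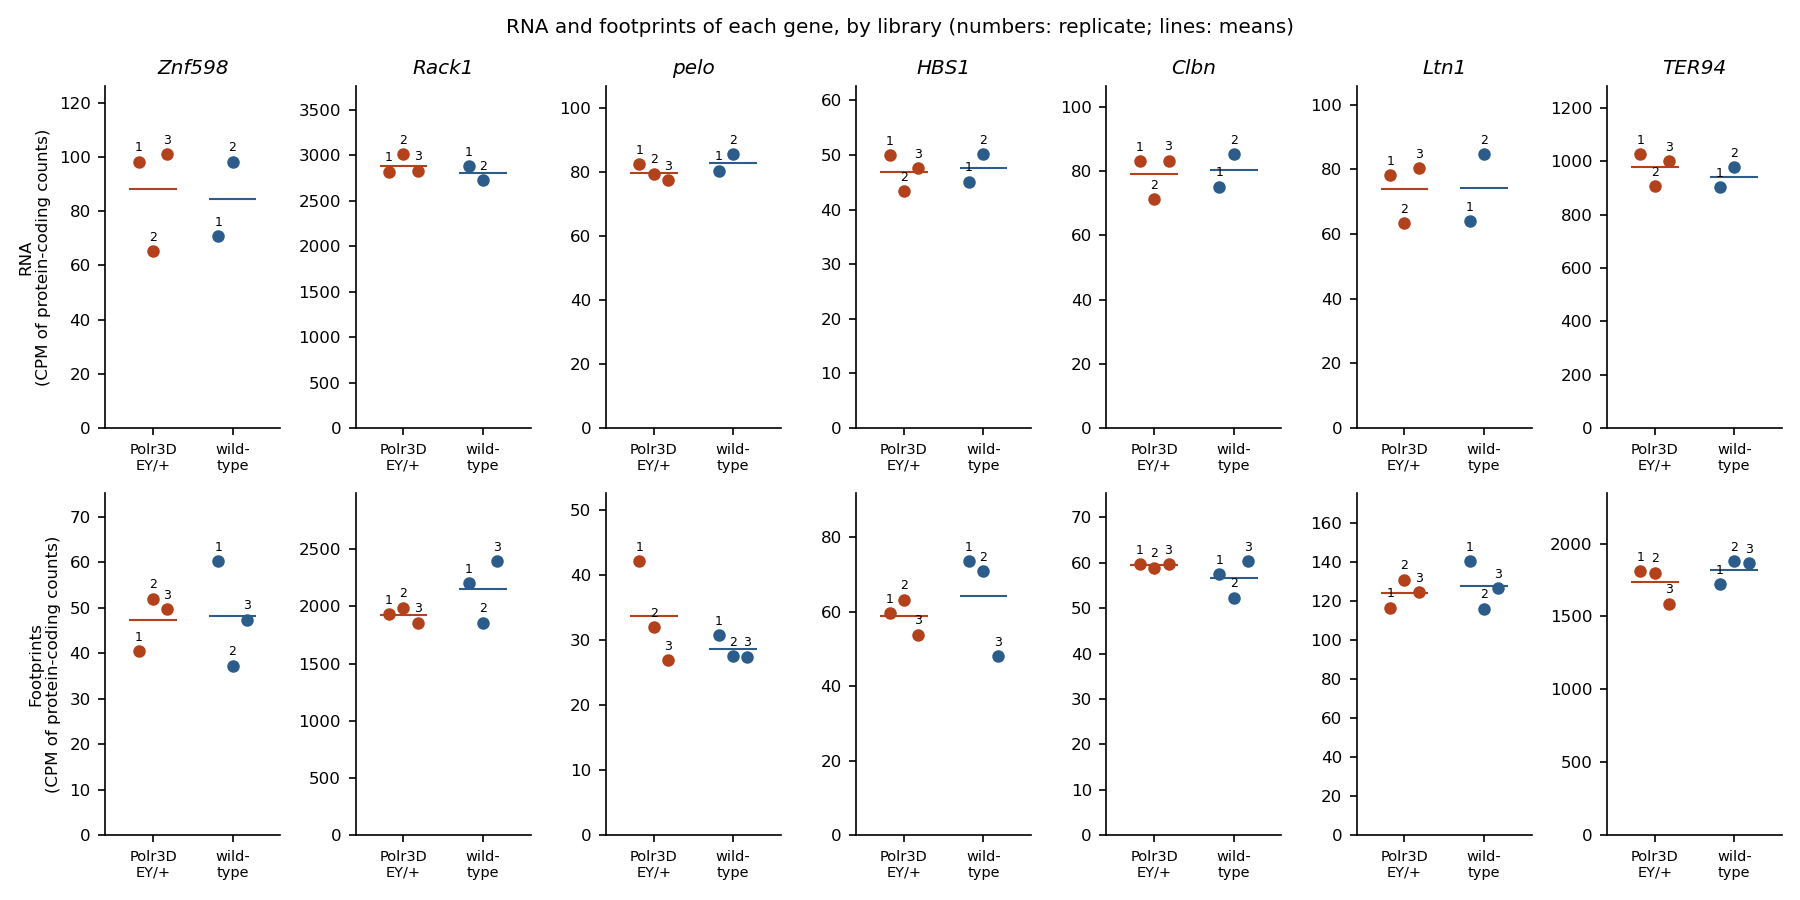
RNA (upper panels, y axis in CPM of protein-coding counts) and footprints (lower panels, same unit) of the 7 genes in each library, Polr3D EY/+ at the left (red) and wild-type at the right (blue); each point is a library with its replicate number, horizontal lines are means, and each panel has its own axis from 0. In all 14 panels the points of the genotypes overlap; the Rack1 footprints of wild-type replicates 1 and 3 lie above the 3 Polr3D EY/+ points and those of replicate 2 among them.

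The next pair splits the stalled ribosome. pelo (FBgn0011207; 2L, 9700810 to 9708883, plus strand) encodes a relative of the termination factor eRF1 that enters the ribosome without reading a stop codon, and was first known in flies for its part in the germline. Its RNA was 82.4, 79.5 and 77.5 CPM in Polr3D EY/+ flies, against 80.3 and 85.5 CPM in wild-type flies. Its footprints were 42.1, 32.0 and 26.9 CPM in Polr3D EY/+ flies, from 48, 102 and 32 counts, against 30.7, 27.5 and 27.5 CPM in wild-type flies, from 46, 31 and 36 counts. The RNA of pelo was among the most even of the 7 genes over the libraries, with 1.10-fold between the highest and the lowest, and its footprints were among the least even, with 1.57-fold. The highest and the lowest footprint level were both from Polr3D EY/+ flies. The fitted log2 change was the highest of the 7 in footprints and in translation efficiency and smaller than its standard error, at 0.26 (SE 0.27) and 0.26 (SE 0.32), both with a DESeq2 adjusted p of 1.0. It was above 0 in footprints in all 16 fits run and in translation efficiency in all 15, as was that of Clbn, while Rack1 and TER94 were below 0 in all 15 of translation efficiency. The fits reuse the same libraries, so a sign shared by all of them is not repeated evidence of a change. The gene overlaps CG31710 on the opposite strand, which had a mean of 168 RNA counts, and the strand setting of the counting is not given in the sources used here.

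HBS1 (FBgn0042712; 3L, 1862881 to 1865240, minus strand) encodes the GTPase that delivers the pelo product, a relative of eRF3. Its RNA was 50.0002, 43.3 and 47.5 CPM in Polr3D EY/+ flies, against 45.1 and 50.1 CPM in wild-type flies. Its footprints were 59.7, 63.3 and 53.8 CPM in Polr3D EY/+ flies, against 73.5, 70.9 and 48.1 CPM in wild-type flies. Wild-type replicates 1 and 2 lay above the Polr3D EY/+ range and wild-type replicate 3 below it. The log2 change was -0.25 in footprints (SE 0.22) and -0.24 in translation efficiency (SE 0.28), the lowest of the 7 and both with a DESeq2 adjusted p of 1.0, in a model that does not hold wild-type replicate 3. With all 11 libraries the footprint change was -0.098, and without the 3 libraries with male markers it was 0.0097.

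The last group acts on the large subunit that carries the unfinished protein. Clbn (Caliban, FBgn0259152; 3R, 25127502 to 25131155, plus strand), known as NEMF in mammals, binds that subunit, recruits the ligase and can extend the protein at its end without an mRNA template. Its RNA was 83.0, 71.2 and 83.2 CPM in Polr3D EY/+ flies, against 75.2 and 85.2 CPM in wild-type flies. Its footprints were 59.7, 58.9 and 59.7 CPM in Polr3D EY/+ flies, against 57.5, 52.3 and 60.3 CPM in wild-type flies. The Polr3D EY/+ footprint levels lay close together and inside the wild-type range. The log2 change in translation efficiency was 0.16 (SE 0.27, 95% interval -0.38 to 0.70, DESeq2 adjusted p 1.0).

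Ltn1 (Listerin, FBgn0262517; 3L, 19544345 to 19552290, minus strand) encodes the ligase that tags the unfinished protein with ubiquitin and is the longest of the 7 proteins, with 1747 residues. Its RNA was 78.3, 63.4 and 80.4 CPM in Polr3D EY/+ flies, against 64.0 and 84.6 CPM in wild-type flies. Its footprints were 116.7, 130.9 and 124.5 CPM in Polr3D EY/+ flies, against 140.4, 116.2 and 126.7 CPM in wild-type flies. In both assays the wild-type libraries included the highest value, and the Polr3D EY/+ values lay within or next to the wild-type range. The log2 change was -0.05 (SE 0.20) in RNA and -0.07 (SE 0.22) in footprints, both with a DESeq2 adjusted p of 1.0. The antisense genes Rcd7 and CG46435 within Ltn1 had means of 4.6 and 1 RNA counts.

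TER94 (FBgn0286784; 2R, 9989159 to 9993559, plus strand), the fly VCP, is an abundant ATPase that pulls ubiquitin-tagged proteins off the ribosome and out of many other complexes and membranes. Its RNA was 1026, 906 and 1000.2 CPM in Polr3D EY/+ flies, against 903 and 977 CPM in wild-type flies. Its footprints were 1810, 1801 and 1588 CPM in Polr3D EY/+ flies, against 1720, 1877 and 1863 CPM in wild-type flies. The genotypes overlapped in both assays, with the single lowest footprint level in Polr3D EY/+ replicate 3. The log2 change was 0.07 (SE 0.12) in RNA, -0.02 (SE 0.12) in footprints and -0.09 (SE 0.16) in translation efficiency, the narrowest errors of the 7 genes in each contrast.

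**Figure D2:**
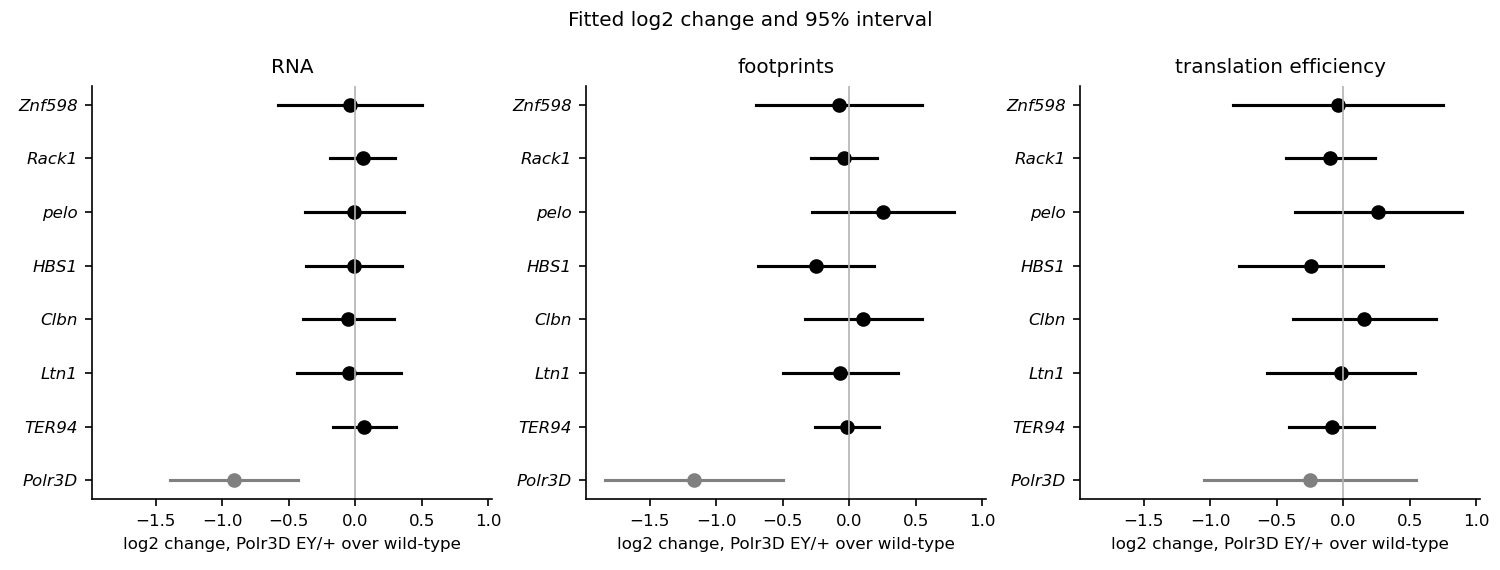
Fitted log2 change of each gene, Polr3D EY/+ over wild-type (x axis), in RNA, footprints and translation efficiency (panels from left to right); points are estimates and bars are 95% intervals from the DESeq2 model of gene sums. All 21 intervals of the 7 genes include 0, and for Polr3D (grey) the intervals in RNA and footprints lie below it.

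Whether all libraries of a genotype lay on one side of the other was counted next, among 7624 genes whose mean count reached 10 in RNA-Seq and in Ribo-Seq alike, a minimum that all 7 genes passed. In RNA, 0 of the 7 were higher in all Polr3D EY/+ libraries, against 4.71% of all genes, and 0 were lower, against 4.84%. In footprints, 0 of the 7 were higher, against 5.42%, and 0 lower, against 6.64%. The ratio of footprints to RNA was taken between libraries of the same genotype and replicate number. The male markers were highest under different numbers in the assays, so libraries of one number may not come from the same flies. The ratio gave 0 higher, against 7.4%, and 0 lower, against 9.51%. With shares of this size, a count of 0 among 7 genes does not set the pathway apart from other genes.

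The levels of the 7 genes relative to each other were read per kilobase, RNA per kilobase of transcript and footprints per kilobase of coding sequence. Rack1 stood highest, with a mean of 2554 CPM of RNA per kb and 2152 CPM of footprints per kb, at the 99.3 and 99.1 percentile of the 7624 genes. TER94 followed with 318 CPM of RNA per kb and 736 CPM of footprints per kb, at the 95.7 and 96.4 percentile. The other 5 genes lay in the middle of all genes, between 13.7 (Ltn1) and 39.6 (pelo) CPM of RNA per kb and between 18.4 (Znf598) and 30.6 (HBS1) CPM of footprints per kb.

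The number of footprints per RNA separated the genes into a lower and a higher set. On a log2 scale per kilobase, the mean over the 5 pairs of same-numbered libraries was -0.57 for Znf598, -0.56 for pelo, -0.32 for Clbn and -0.30 for Rack1, and 0.62 for HBS1, 0.82 for Ltn1 and 1.19 for TER94. The median of all ranked genes was 0.29, with quartiles of -0.45 and 0.99, so 4 of the genes lay below the median and 3 above it. The ranges of the replicates overlapped between all neighbours in this order except Rack1 and HBS1, where the highest value of Rack1 was -0.15 and the lowest of HBS1 was 0.36. The ratio depends on the lengths used, since it sets footprints over coding sequence against RNA over the whole transcript. pelo, with 1185 coding nucleotides in a transcript of 2045, was moved most by this, as its ratio without lengths had a mean of -1.35, and Ltn1, with 5241 in 5404, hardly at all (0.77).

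**Figure D3:**
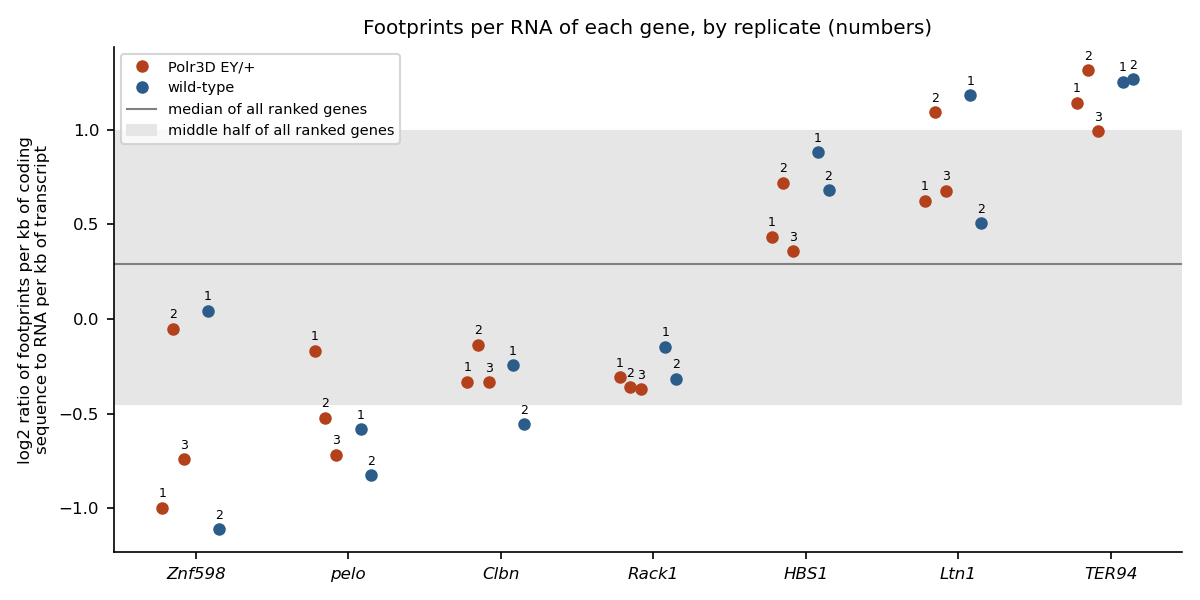
Log2 ratio of footprints per kb of coding sequence to RNA per kb of transcript (y axis) for the 7 genes, ordered by their mean; each point is a replicate with both assays (numbers), Polr3D EY/+ in red at the left and wild-type in blue at the right of each gene, the grey line is the median of 7624 genes (0.29) and the band spans their quartiles (-0.45 to 0.99). Znf598, pelo, Clbn and Rack1 lie below the line in every replicate and HBS1, Ltn1 and TER94 above it, in both genotypes.

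The ratios of Znf598 and Ltn1 varied between the libraries of a genotype. The log2 ratio per kilobase of Znf598 was -1.0, -0.05 and -0.74 in Polr3D EY/+ replicates 1 to 3, against 0.04 and -1.11 in wild-type replicates 1 and 2. That of Ltn1 was 0.63, 1.09 and 0.68 in Polr3D EY/+ flies, against 1.18 and 0.51 in wild-type flies. For both genes the highest value of each genotype came from Polr3D EY/+ replicate 2 and wild-type replicate 1. The RNA-Seq libraries of these same replicates gave the lowest RNA levels of Znf598, Ltn1, HBS1, Clbn and TER94 within their genotypes, and the highest of Rack1. They were also the deepest RNA-Seq libraries, with 28718489 and 27855356 protein-coding counts, and the summed RNA of 3 yolk protein genes, markers of the female fat body, was 19540 and 21381 CPM in them and 24610 to 27887 CPM in the other 3. The part of these differences between libraries in the levels of the genes was not tested.

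Factors that work as partners differed in RNA level. pelo and HBS1 act as a complex, and the RNA of pelo per kilobase was 1.80 to 2.03 times that of HBS1 in Polr3D EY/+ flies and 1.89 to 1.97 times in wild-type flies. In footprints per kilobase the ratio of pelo to HBS1 was 0.85 to 1.2 in Polr3D EY/+ flies and 0.66 to 0.97 in wild-type flies. Clbn and Ltn1 bind the same large subunit, and Clbn exceeded Ltn1 in RNA per kilobase 1.71 to 1.86 times in Polr3D EY/+ flies and 1.66 to 1.94 times in wild-type flies. In footprints per kilobase, Clbn stood at 0.79 to 0.90 of Ltn1 in Polr3D EY/+ flies and at 0.72 to 0.84 in wild-type flies. For both pairs the highest footprint ratio in any library lay below the lowest RNA ratio. The genotypes overlapped in all 4 of these comparisons.

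**Figure D4:**
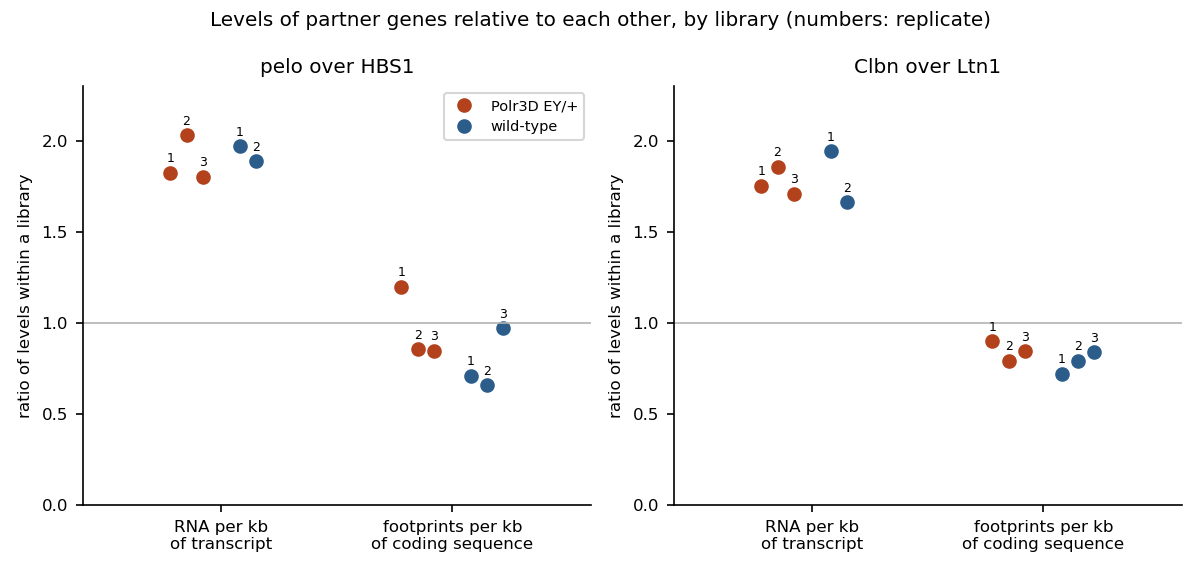
Ratio of the level of pelo to HBS1 (left) and of Clbn to Ltn1 (right) within each library (y axis, linear from 0), in RNA per kb of transcript and in footprints per kb of coding sequence; points are libraries with replicate numbers, Polr3D EY/+ in red and wild-type in blue. The RNA ratios lie between 1.66 and 2.03 and the footprint ratios between 0.66 and 1.2, and the line marks equal levels.

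Rack1 can be set against the other proteins of the ribosome. It stood above 57 of 85 ribosomal protein genes in RNA per kilobase, above 77 of 85 in footprints per kilobase and above 68 of 85 in the log2 ratio per kilobase. The median ratio of the 85 genes was -0.73, below both Rack1 (-0.30) and all genes (0.29).

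Single transcripts of the 7 genes were examined last, because the table divides the fragments of a gene among its transcripts by estimation. The 7 genes had 14 transcripts in the table, of which Ltn1, pelo and Znf598 had 1 each. In RNA, 0 of the 14 were called, against 1.81% of all transcripts tested. In footprints 2 of the 14 were called, against 3.21%, and in translation efficiency the same 2, against 2.26%. They were FBtr0301277 of Clbn and FBtr0112906 of TER94, and both owed their footprints to a single library, that of Polr3D EY/+ replicate 2, which is the deepest of the Ribo-Seq libraries.

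For Clbn the division moved as a whole. All of its RNA was given to FBtr0301277 in all 5 RNA-Seq libraries, and 0 counts to FBtr0301278. All of its footprints, 188 counts, were given to FBtr0301277 in Polr3D EY/+ replicate 2, and all to FBtr0301278 in the other 5 libraries, with 68 and 71 counts in Polr3D EY/+ and 86, 59 and 79 counts in wild-type flies. The transcripts share a coding sequence of 2976 nucleotides and differ in the 5′ untranslated region, by 181 against 169 nucleotides in annotated length. The mean footprint level of FBtr0301277 over the 3 Polr3D EY/+ libraries was 8.41-fold a floor of 3 counts in wild-type replicates 1 and 2. That mean came from replicate 2 alone, with 0 counts in Polr3D EY/+ replicates 1 and 3, so it does not bound a genotype difference. The DESeq2 adjusted p was 4.44e-06 in footprints and 0.0032 in translation efficiency. Without the footprints of Polr3D EY/+ replicate 2 the log2 change in footprints was 0.092. No footprints of FBtr0301277 remained in that fit, so it could not call a change in them.

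For TER94 the division moved at the margin. FBtr0112906 received 33 footprints in Polr3D EY/+ replicate 2, 0.574% of the footprints of the gene there, and 0 in the other 5 libraries, and its RNA was 0, 39 and 4 counts in Polr3D EY/+ flies, against 17 and 0 counts in wild-type flies. The mean footprint level over the Polr3D EY/+ libraries was 1.48-fold the same floor and again came from replicate 2 alone, so it does not bound a genotype difference. The DESeq2 adjusted p was 0.00167 in footprints and 0.00431 in translation efficiency. Without that library the log2 change in footprints was 0.98, from a fit in which no footprints of FBtr0112906 remained. Both calls were absent in edgeR. They were also absent in DESeq2 without the footprints of Polr3D EY/+ replicate 2, where neither transcript had footprints left in which a change could be called. With wild-type replicate 3 in the model, only that of Clbn was made. Neither was made without the whole of Polr3D EY/+ replicate 1 or 2. In those fits the RNA change of even FBtr0079565, the main Rack1 transcript, had an SE of 2.26 and 2.34, against 0.11 in the model. An absent call there says little. FBtr0112906 encodes a shorter protein than the other forms, with 2277 coding nucleotides.

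The shares of the abundant forms of TER94 overlapped between the genotypes. FBtr0343852, which encodes the longest form with 825 residues, took 16.3% to 18.3% of the RNA of the gene in Polr3D EY/+ flies and 15.4% to 16.7% in wild-type flies, and 13.7% to 20.9% of the footprints in Polr3D EY/+ flies and 13.7% to 21.0% in wild-type flies. The remainder was almost all FBtr0088391.

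**Figure D5:**
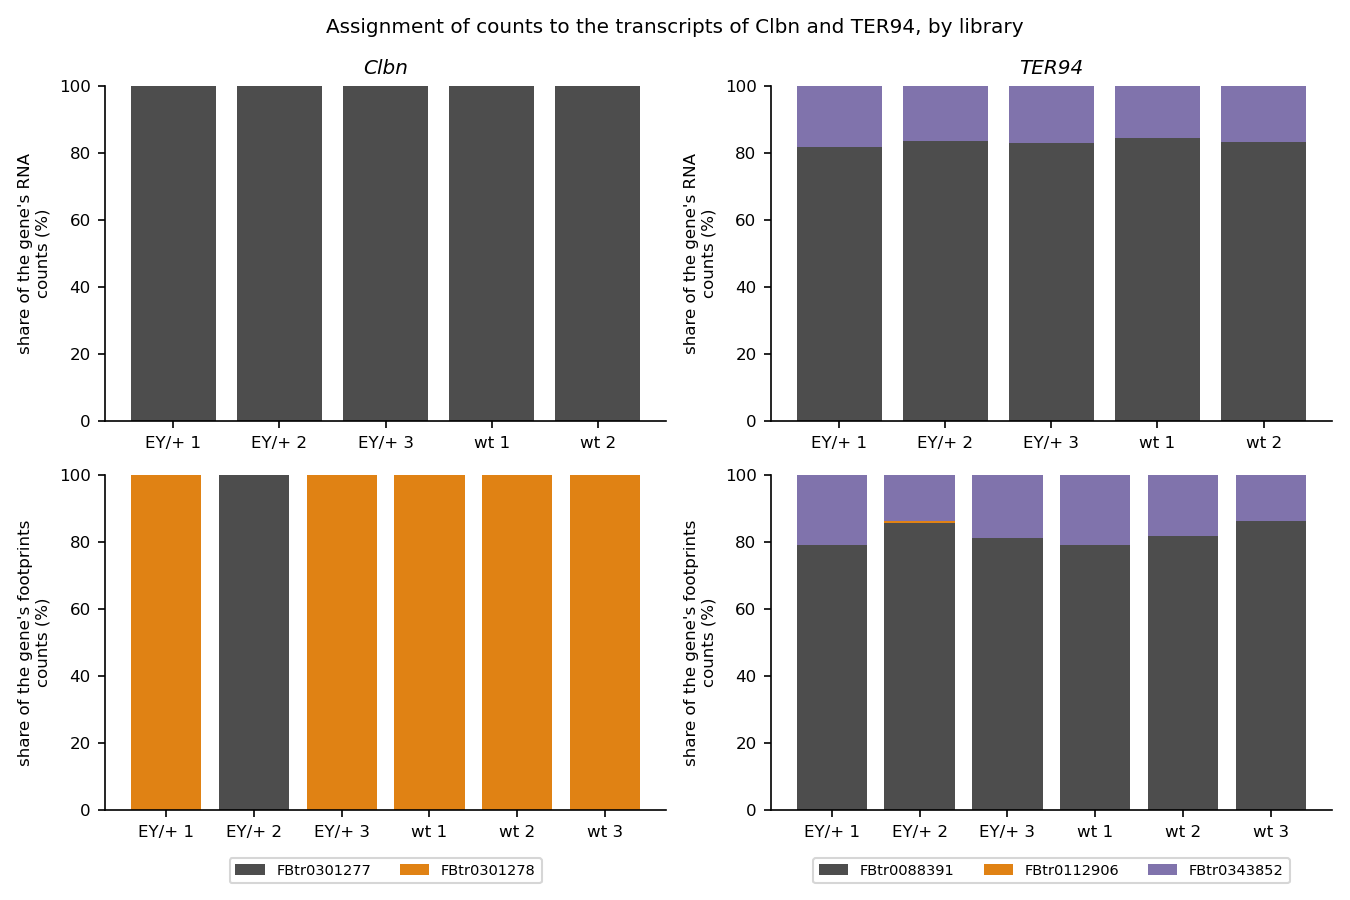
Share of the counts of Clbn (left) and TER94 (right) assigned to each of their transcripts (y axis, percent, stacked to 100), in RNA (upper) and footprints (lower), for each library, Polr3D EY/+ replicates (EY/+) at the left and wild-type replicates (wt) at the right. For Clbn the bar of Polr3D EY/+ replicate 2 in footprints has the other transcript from the remaining 5 bars, and for TER94 FBtr0112906 is a thin band of 0.574% in the same library.

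Rack1 and HBS1 were carried by 1 form each. FBtr0079565 held 94.7% to 94.8% of the Rack1 RNA in both genotypes and at least 99.7% of its footprints in every library. The minor form FBtr0345448, with the same coding sequence and a longer 5′ untranslated region, held 1.69% to 1.77% of the RNA in Polr3D EY/+ flies and 2.04% to 2.16% in wild-type flies. FBtr0331238, again with the same coding sequence, held 2.26% to 2.48% of the RNA in Polr3D EY/+ flies and 2.15% to 2.19% in wild-type flies. Neither form was called on its counts, and the shares were not tested. The ranges of both shares lie apart between the genotypes, with 3 libraries against 2. How often the shares of other transcripts lie apart was not counted. For RNA levels of genes, a different measure, 4.71% of 7624 genes were higher in all Polr3D EY/+ libraries and 4.84% were lower. A further form, FBtr0331237, has a coding sequence of 327 nucleotides followed by a 3′ untranslated region of 938 nucleotides, and held 1.01% to 1.22% of the RNA in Polr3D EY/+ flies and 0.92% to 1.05% in wild-type flies. Its footprints were 0 in every library but that of wild-type replicate 1, which had 7. FBtr0345807 of HBS1 had 92, 11 and 10 RNA counts in Polr3D EY/+ flies, against 0 and 31 counts in wild-type flies, and 0 footprints in every library, while FBtr0072866 held the rest.

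The wider pathway was covered by 36 further genes in 6 lists, of which 35 were in the table. None of the 35 was called in RNA, footprints or translation efficiency by DESeq2, against 1.02%, 0.362% and 0.303% of all genes tested. Unadjusted DESeq2 p-values under 0.05 went to 0 of the 35, against 231, 420 and 237 genes of the whole table. edgeR called 0 of the 35, against 15, 39 and 4 of 14368 genes. With so few genes called, these counts of 0 do not set the 35 apart from other genes. The median log2 change of the 35 in RNA was 0.01, beside -0.0047 over all genes. It was -0.10 for footprints, beside -0.06, and -0.09 for translation efficiency, beside -0.03. The 6 genes of collision sensing and translation repression, which include the kinase Gcn2 and its partner Gcn1 and the repressors eIF4EHP and Gyf, all had fitted changes below 0 in footprints, between -0.45 and -0.16, and in translation efficiency, between -0.26 and -0.14, with 0 of 6 called. The 6 genes of release and recycling also lay below 0 in translation efficiency, between -0.50 and -0.00046, with 0 of 6 called. In RNA, 0 of these 6 lay below 0. The other lists were mixed in translation efficiency. Below 0 were 5 of 9 genes of mRNA decay, 3 of 6 of nonsense-mediated decay, 2 of 3 TER94 cofactors and 3 of 5 of UFMylation. Of all genes tested, 56.6% were below 0 in footprints and 52.5% in translation efficiency. Over the 15 fits of translation efficiency, between 3 and 6 genes of collision sensing and between 5 and 6 of release and recycling were below 0, the 3 being the fit without wild-type replicate 1.

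No single gene of these lists passed the test. In RNA the highest values were those of Smg5, a nonsense-mediated decay factor, at 0.16 (SE 0.16), and eIF2D, which helps recycle the small subunit, at 0.12 (SE 0.24). The lowest were those of Gcn2 at -0.29 (SE 0.29) and tst, the helicase that feeds mRNA to the exosome, at -0.19 (SE 0.23). In footprints, Ufd1-like, a cofactor of TER94, had 0.33 (SE 0.20) and Upf3, another nonsense-mediated decay factor, 0.21 (SE 0.33), and Gcn2 had -0.45 (SE 0.35) and pix, the fly ABCE1 that separates the subunits after termination, -0.40 (SE 0.24). In translation efficiency Ufd1-like had 0.32 (SE 0.25) and Upf3 0.29 (SE 0.39), and eIF2D had -0.50 (SE 0.41) and pix -0.42 (SE 0.31). Each of these values had a DESeq2 adjusted p of 1.0.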

How the data were processed

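Each value in the table deposited by the authors is an estimated count of fragments per transcript, rounded to whole numbers and not normalised; the authors trimmed reads with Cutadapt and quantified both assays with Salmon on a decoy-aware transcriptome index that includes noncoding RNAs, after RNase I digestion of lysates for Ribo-Seq. Counts were summed per gene with the Ensembl annotation (assembly BDGP6), a later release than that of the authors' index. RNA-Seq of wild-type replicate 3 was not analysed here. The model of the study (replicate, genotype, assay and their interaction) was fitted in DESeq2 1.42.0 (R 4.3.3) to 10 libraries, without wild-type replicate 3, with 6 coefficients and 4 residual degrees of freedom. Two-sided Wald tests were Benjamini-Hochberg adjusted over all genes and called under 0.1. CPM used protein-coding totals; ratios used a pseudocount of 0.5. Alternatives included edgeR 4.0.16, other size factors, filters, all 11 libraries, no replicate term and left-out libraries. The DESeq2 and edgeR fits were tested on simulated data. The changes put into it were much larger than those fitted for the 7 genes, so it does not show whether small changes could be detected. The labels do not say whether replicates were separate cultures of flies, so p-values measure the spread between these samples. The genes and lists were chosen with earlier results of these data known. All 7 genes were named in every contrast, and of the other genes those called or with the 2 highest and 2 lowest changes in a contrast, and the 3 most correlated with Clbn.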

Additional observations from a re-analysis of the deposited data

Results flagged for a closer look

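For FBtr0301277 of Clbn the effect of the genotype differed between Ribo-Seq and RNA-Seq in the interaction term of DESeq2 (adjusted p 0.0032). For FBtr0112906 of TER94 it differed too (adjusted p 0.00431). Both rest on the footprints of Polr3D EY/+ replicate 2, and the sums over the transcripts of each gene had interaction changes of 0.16 and -0.09, both with an adjusted p of 1.0 in DESeq2.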

How the results depend on the processing

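No fit called any of the 7 genes as a gene sum: 0 were called in RNA and footprints over 16 settings each and in translation efficiency over 15, the lowest adjusted p being 0.845. The settings include the fit without Polr3D EY/+ replicate 1, which called only 8, 2 and 0 genes of the whole table in RNA, footprints and translation efficiency. The number of all genes called moved with the setting. In RNA it was 15 in edgeR, 23 with a mean of at least 10 counts, 66 with all 11 libraries, 54 with each assay alone, 18 without the libraries with male markers, 512 over single transcripts and 4 to 115 without a replicate or library. In footprints it was 10 with the minimum, 28 with each assay alone, 26 without the male-marker libraries, 821 over single transcripts and 2 to 33 with a library or replicate left out. In translation efficiency it was 4 in edgeR, 1 with the minimum, 10 with all 11 libraries, 7 without the male-marker libraries, 540 over single transcripts and 0 to 19 with a library or replicate left out, 0 being the fit without Polr3D EY/+ replicate 1, where 92 genes had an unadjusted p under 0.05. Whether the replicate numbers pair the samples was not settled. Deviations of same-numbered libraries from their group means correlated at -0.42 and -0.64 in RNA-Seq and at 0.05, -0.16 and -0.03 in Ribo-Seq. The 2 wild-type RNA-Seq libraries deviate from their mean as mirror images. The same Polr3D EY/+ libraries therefore gave 0.42 and 0.64 with the wild-type library of the other number. With no replicate block, 41 genes were called in RNA and 7 in translation efficiency, and the RNA change of Znf598 turned to 0.060. Single transcripts gave 2 calls among the 7 genes in footprints and in translation efficiency. Of these, 0 were made in edgeR and 1 with all 11 libraries. Also, 0 were made with the footprints of Polr3D EY/+ replicate 2 left out, a fit without any footprints of these transcripts that could not make the footprint calls. Neither was made without the whole of Polr3D EY/+ replicate 1 or 2, where the wide errors given above leave an absent call with little meaning. With no block 1 was made, another transcript (FBtr0331237 of Rack1, lower, adjusted p 0.0128 in footprints in DESeq2, while DESeq2 gave FBtr0301277 of Clbn no p). Several changes turned sign. In RNA, HBS1 was 0.0036 in edgeR, 0.0018 with TMM factors and 0.041 with all 11 libraries, pelo 0.0069, 0.0034 and, with protein-coding totals, 0.00013, and Znf598 0.063 with each assay alone. In footprints, TER94 was 0.0018 in edgeR and 0.0018 with TMM factors, Znf598 0.0032 with all 11 libraries, and without the male-marker libraries HBS1 was 0.0097 and TER94 0.0050. In translation efficiency, Ltn1 was 0.0082 and Znf598 0.015 with all 11 libraries, and HBS1 0.075 without the male-marker libraries. With a replicate or library left out, the RNA change ran between -0.18 and 0.079 for Clbn, -0.092 and 0.087 for HBS1, -0.25 and 0.18 for Ltn1, -0.11 and 0.11 for pelo, -0.092 and 0.20 for Rack1, -0.017 and 0.19 for TER94, and -0.31 and 0.27 for Znf598. The footprint change ran between -0.18 and 0.069 for Ltn1, -0.23 and 0.14 for Rack1, -0.10 and 0.063 for TER94, and -0.35 and 0.26 for Znf598, and that of translation efficiency between -0.35 and 0.32 for Ltn1 and -0.59 and 0.57 for Znf598. The cause of these turns was not tested. DESeq2 size factors raised the log2 ratio of footprints to RNA of all 7 genes by 0.24 in Polr3D EY/+ and 0.22 in wild-type flies, which leaves their order as it was. With a minimum of 50 counts the percentile of the ratio per kilobase moved from 81.1 to 77.2 for TER94, 69.2 to 61.5 for Ltn1 and 62.5 to 52.4 for HBS1, which then lay close to the median. It moved from 29.2 to 15.8 for Rack1, 28.7 to 15.4 for Clbn and 21.7 to 9.66 for Znf598, and pelo did not pass. Depth limits the footprint values, with 31 to 102 counts per library for pelo.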

Other observations

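Over the 11 libraries, with log2 CPM centred within each assay, the genes whose levels were most like those of Clbn among 7623 others were CG31224 (r = 0.94), CG2930 (r = 0.94) and aux (r = 0.93), the fly auxilin. Of the 6 other quality control genes, Znf598 (r = 0.76) and Ltn1 (r = 0.76) came nearest, and HBS1 (r = -0.15) and Rack1 (r = 0.0019) were farthest. The libraries of an assay differ in depth and composition, and all genes were read from the same 11 libraries. These values therefore describe the libraries and carry no test.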
